A study of Homo sapiens with 6 samples.

Results

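The genes described here encode the proteins of the mitochondrial ribosome, taken by symbol as every MRPL or MRPS gene with a number and an optional letter A, B or C. Of 20476 genes in the count table, 78 had such a symbol, 49 of the large subunit (MRPL) and 29 of the small subunit (MRPS). The family was picked on earlier results of this same contrast, in which MRPL1 had one of the smallest p-values on the higher side. The values of the contrast below are therefore a description of the members and support nothing beyond them. Of the 78 members, 76 passed the filter on low counts, and MRPL30 and MRPS17 were listed at 0 counts in all 6 libraries.

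The mitochondrial ribosome translates the few proteins that the mitochondrial genome still encodes, all of them membrane subunits of the respiratory chain and ATP synthase. All of its own proteins are encoded in the nucleus, made in the cytosol and imported, while its ribosomal RNAs are mitochondrial, so its assembly needs both genomes. Its small subunit holds the messenger RNA and the decoding centre, and its large subunit joins the amino acids and releases the chain through a tunnel at the inner membrane. Many of its proteins have a bacterial counterpart and the others are particular to mitochondria. Colorectal tumour cells depend on this ribosome for oxidative phosphorylation, as other cells do.

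The cells were SW620, an established line from a metastasis of a human colorectal cancer. The study compared 3 libraries of cells with a short hairpin RNA against ECM1 (shECM1) with 3 libraries of cells with a control hairpin (shNC), to see what followed from lowering ECM1, a secreted extracellular matrix glycoprotein. Both groups carried a hairpin, no parental cells were compared, and neither the hairpin sequence nor whether each line was a clone is stated. The labels speak of total RNA from each line and also of droplet libraries of cells, and leave unsaid which of these kinds each column of counts holds. The columns carry the letters C and S, which were read as shNC and shECM1 from their names; if that reading were wrong, every direction below would be reversed. In such samples fewer cells of a type and less RNA per cell cannot be told apart. Separate cultures for the 3 libraries of a group are nowhere stated, and the p-values then cover only the spread among these libraries, possibly a technical one.

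Promoter sequences are shown first for 7 members, with the matches to 4 motifs known from genes of mitochondrial biogenesis and growth. Each is the part of the 250 bases before the RefSeq start (GRCh38.p14) that lies outside annotated exons of the gene, written 5' to 3' on the gene's strand, with motif matches in capitals. They were chosen after their values and matches were seen, to show both motifs on genes of different fold change, and the set says nothing of how motif and fold change go together. MRPL3, MRPL20, MRPL58 and MRPS31 (log2 fold changes 0.51, 0.46, 0.40 and 0.30) and MRPS18A (0.09) carry the ETS motif CCGGAAG, bound by factors such as GABPA. The NRF1 motif GCGCANGCG is in MRPL20 and in MRPL17 (-0.17), and MRPL4 (0.45) carries no match. MRPL1 has no match to the 4 motifs in its entry and is not shown because its annotated exons cover the window. MRPL3 is from chr3:131502984-131503221 on the minus strand, MRPL20 from chr1:1407314-1407543 on the minus strand, MRPL58 from chr17:75012420-75012669 on the plus strand, MRPS31 from chr13:40771191-40771440 on the minus strand, MRPS18A from chr6:43687792-43688041 on the minus strand, MRPL17 from chr11:6683402-6683590 on the minus strand and MRPL4 from chr19:10251701-10251900 on the plus strand.
MRPL3: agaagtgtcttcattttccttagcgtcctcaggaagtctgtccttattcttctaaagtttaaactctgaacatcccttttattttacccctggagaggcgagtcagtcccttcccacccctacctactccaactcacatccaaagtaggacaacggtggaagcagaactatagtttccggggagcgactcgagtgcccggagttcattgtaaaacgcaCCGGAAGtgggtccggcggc
MRPL20: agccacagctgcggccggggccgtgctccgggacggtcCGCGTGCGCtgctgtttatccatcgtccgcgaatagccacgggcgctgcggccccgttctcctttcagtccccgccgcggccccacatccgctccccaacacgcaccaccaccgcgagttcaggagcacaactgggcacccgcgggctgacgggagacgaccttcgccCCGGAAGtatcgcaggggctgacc
MRPL58: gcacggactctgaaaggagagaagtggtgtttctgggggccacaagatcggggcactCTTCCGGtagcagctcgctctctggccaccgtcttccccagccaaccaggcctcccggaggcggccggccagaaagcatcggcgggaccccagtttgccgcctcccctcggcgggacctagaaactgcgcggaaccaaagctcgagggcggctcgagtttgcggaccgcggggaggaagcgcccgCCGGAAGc
MRPS31: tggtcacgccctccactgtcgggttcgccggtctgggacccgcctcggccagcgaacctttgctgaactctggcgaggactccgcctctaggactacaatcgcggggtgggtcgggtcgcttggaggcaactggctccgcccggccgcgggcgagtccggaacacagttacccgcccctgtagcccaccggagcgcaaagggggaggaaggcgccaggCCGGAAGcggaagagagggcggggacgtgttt
MRPS18A: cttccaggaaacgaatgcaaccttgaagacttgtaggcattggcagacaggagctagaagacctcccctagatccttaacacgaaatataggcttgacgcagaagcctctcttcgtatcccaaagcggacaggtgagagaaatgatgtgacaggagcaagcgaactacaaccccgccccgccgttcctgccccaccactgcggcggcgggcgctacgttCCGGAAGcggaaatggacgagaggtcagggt
MRPL17: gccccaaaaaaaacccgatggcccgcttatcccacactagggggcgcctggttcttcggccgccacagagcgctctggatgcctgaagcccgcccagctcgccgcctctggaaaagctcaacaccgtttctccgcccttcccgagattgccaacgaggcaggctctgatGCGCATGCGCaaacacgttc
MRPL4: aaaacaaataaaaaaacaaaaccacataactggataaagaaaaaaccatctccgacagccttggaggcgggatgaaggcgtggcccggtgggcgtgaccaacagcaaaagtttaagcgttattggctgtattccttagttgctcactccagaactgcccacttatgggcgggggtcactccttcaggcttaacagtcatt
The capitals mark 1 ETS match in MRPL3, an NRF1 and then an ETS match in MRPL20, 2 ETS matches in MRPL58, 1 ETS match each in MRPS31 and MRPS18A, and 2 overlapping NRF1 matches in MRPL17. Sequence was found for 69 of the 78 members, in 85 entries of 300 bases each, 250 before and 50 after the start, and both strands were searched. The ETS letters were in 33 of the 85 entries (38.8%), against 10.3% of all 35116 entries and 16.8% of those of tested genes. The NRF1 letters were in 15 entries (17.6%, against 12.5% for tested genes). The YY1 letters AAGATGGCG were in 13 (15.3%, against 3.41%). The E-box CACGTG, a MYC site among others, was in 9 (10.6%, against 9.25%). At least 1 of the 4 was present in 64.7% of member entries and in 34.9% of those of tested genes. The log2 fold changes did not separate along these letters, with medians of 0.25 in the 29 tested members with an ETS match and 0.21 in the 38 without. For NRF1 the medians were 0.22 with and 0.22 without, for YY1 0.19 with and 0.23 without, and for the E-box 0.20 with and 0.22 without. A match is a description of the letters, not a bound site.

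Levels are given as CPM, the share of a library's counts scaled with TMM factors. Library totals ranged from 9881720 to 16813951 counts. The first principal component of log2 CPM, 58.1% of the variance, placed shNC 1 and 3 at -25.2 and -41.3 but shNC 2 at 8.64, on the side of the shECM1 libraries at 16.6 to 23.3. ECM1, the targeted gene, measured 38.8, 19.0 and 52.3 CPM in shNC and 14.8, 13.6 and 8.41 CPM in shECM1 (log2 fold change -1.58, SE 0.320); shNC 2 again lay nearest to the shECM1 libraries. Of the epithelial markers all 6 were detected, with a summed level of 10903 to 14485 CPM in shNC and 10512 to 11751 CPM in shECM1. Immune markers summed to at most 0.202 CPM in any library, with PTPRC and CD3E at 0. Fibroblast markers, nearly all of it COL1A1, summed to 13.5 to 20.6 CPM in shNC and 7.26 to 10.0 CPM in shECM1, with PDGFRA at 0. Endothelial markers summed to 9.75 to 12.3 CPM and 8.20 to 9.29 CPM. The part of these differences in the members' values was not tested.

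Across the family, shECM1 libraries stood above shNC libraries by a small amount in nearly every member, and no member passed the test alone. The log2 fold change of shECM1 over shNC was positive in 73 of 76 members, where 51.4% of all 12576 tested genes were positive. The median was 0.22 in members and 0.01 over all tested genes, or 0.27 and 0.03 without shNC 2. In 37 members all 3 shECM1 libraries lay above all 3 shNC libraries, where 11.2% of all tested genes did so, and in 0 members did all lie below, where 13.2% of all tested genes did. Since the contrast chose the family, these shares are set beside each other and nothing is read from them.

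No member was called by edgeR's quasi-likelihood test at a Benjamini-Hochberg adjusted p under 0.05, where 0% of all tested genes were called. At an unadjusted p under 0.05 there were 30 members and 2827 genes, and the smallest adjusted p among members was 0.0973 (edgeR). DESeq2 called 7 members higher and 0 lower, where 1.04% of the genes to which it gave an adjusted p were called higher and 5.13% lower. The 7 were MRPL1, MRPL3, MRPL15, MRPL20, MRPL58, MRPS33 and MRPS35. Without shNC replicate 2, edgeR called 28 members higher and 0 lower, where 9.73% of genes were called higher and 14.1% lower.

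**Figure D1:**
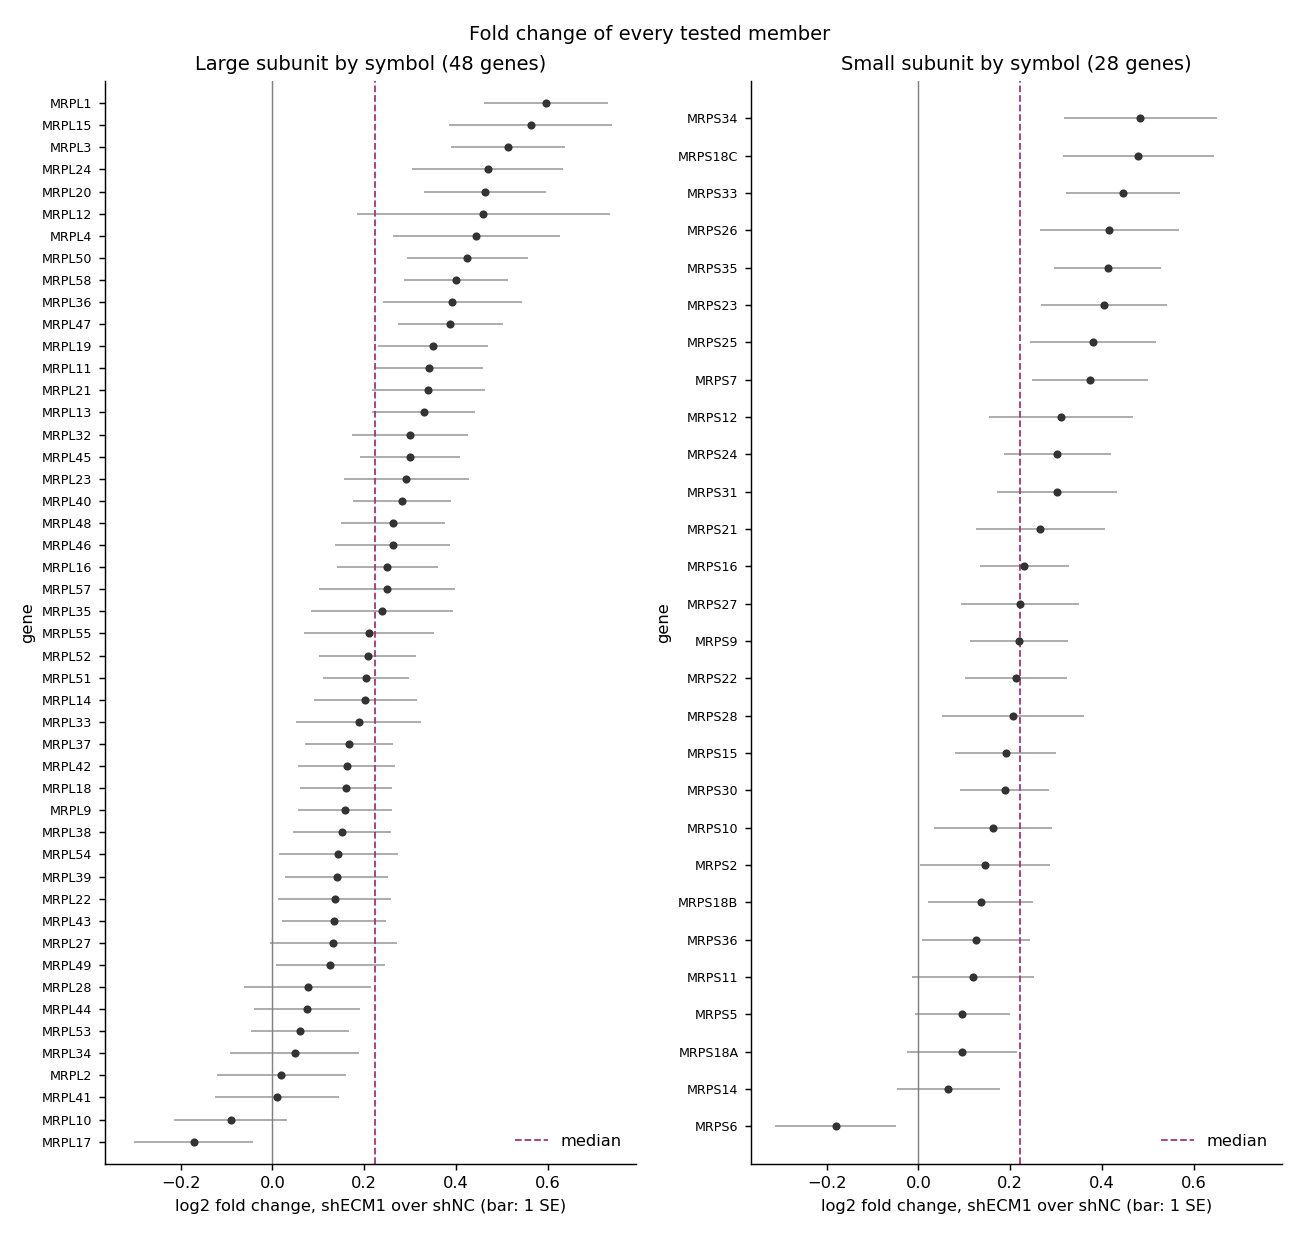
Log2 fold change of shECM1 over shNC (x axis) for each of the 48 large-subunit and 28 small-subunit genes tested (y axis), as a point with 1 standard error from edgeR and the subunit's median as a dashed line. All but MRPL17, MRPL10 and MRPS6 lie above 0, and both medians are 0.22.

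Each library had its own position. The CPM summed over the members were 4307, 4775 and 4409 in shNC 1, 2 and 3, and 5006, 5373 and 5522 in shECM1 1, 2 and 3. The groups did not overlap, and shNC 2 lay nearest to the shECM1 libraries. The means were 4497 ± 246 for shNC and 5300 ± 266 for shECM1 (SD, n = 3 each), a difference of 17.9%, or 21.6% when shNC 2 was left out. As a share of all counts the members made up 0.432%, 0.489% and 0.417% in shNC and 0.510%, 0.536% and 0.557% in shECM1.

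The members' median log2 deviation from their own mean over the 6 libraries was -0.18, -0.02 and -0.15 in shNC 1 to 3 and 0.06, 0.14 and 0.17 in shECM1 1 to 3. The same median over all tested genes was between -0.01 and 0 in each library. The highest value of a member was in shECM1 3 for 42 members, in shECM1 2 for 27, in shECM1 1 for 5 and in shNC 3 for 2. The lowest was in shNC 1 for 32 members, in shNC 3 for 30, in shECM1 1 for 8, in shNC 2 for 5 and in shECM1 2 for 1. By the median, shECM1 1, the shallowest library, was the lowest of the shECM1 libraries, and shNC 2 the highest of the controls.

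In 51 of the 76 members shNC 2 was the highest of the 3 controls. In 30 members it fell inside the range of the shECM1 libraries, and in 46 it lay below all of them. Against shNC 1 and shNC 3 alone, 52 members had all shECM1 libraries higher, where 26.1% of all tested genes did so. The members' median coefficient of variation within a group was 9.02% in shNC and 8.71% in shECM1, against 12.2% and 11.1% over all tested genes. This coefficient varies with level, the members' median level was 60.9 CPM, and genes of matched level were not compared. Over the 6 libraries the median Pearson correlation between pairs of members was 0.62, a description in which the points share libraries and depth. The group difference on which the family was picked is part of this value. It was not set beside a value over all genes, and nothing is read from it.

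**Figure D2:**
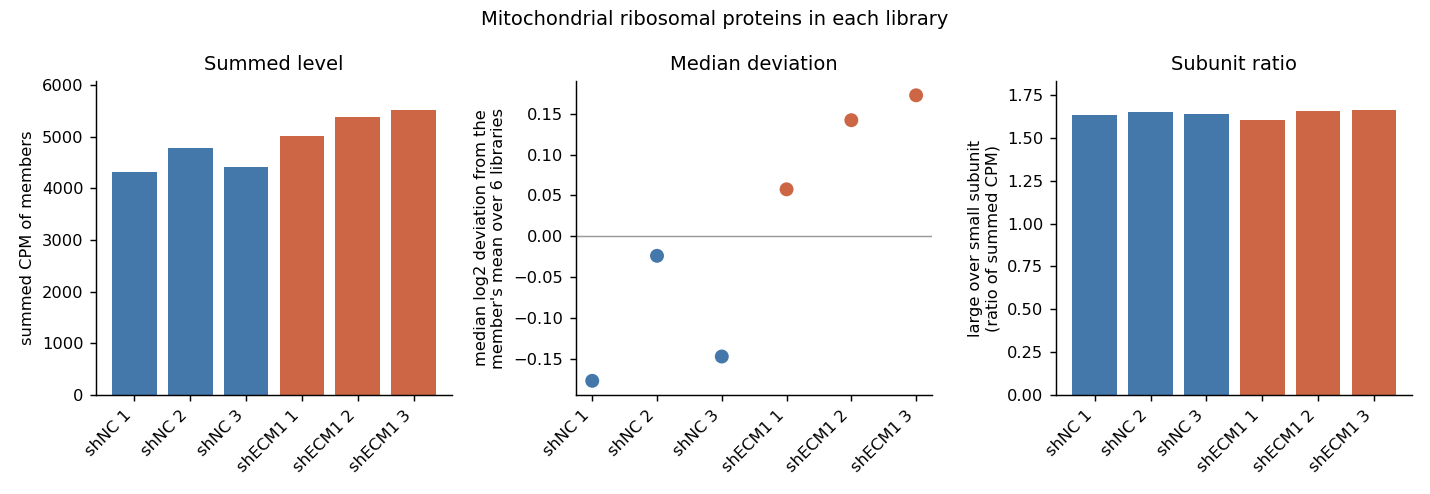
Summed CPM of the members, their median log2 deviation from each member's mean over the 6 libraries, and the ratio of summed CPM of large over small subunit (y axes) in each library (x axis), shNC in blue and shECM1 in orange. The shECM1 libraries sum to 5006 to 5522 CPM and the shNC libraries to 4307 to 4775, while the ratio stays between 1.60 and 1.66.

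Among large-subunit genes, MRPL1 stood highest. It encodes the protein of the L1 stalk, which lies where spent transfer RNA leaves the ribosome, and its gene (ENSG00000169288) spans chr4:77862520-77952790 on the plus strand of GRCh38. Its CPM were 36.8, 45.3 and 32.6 in shNC and 58.4, 60.6 and 54.6 in shECM1. Every shECM1 library was above every shNC library, and shNC 2 was again the highest control. The log2 fold change was 0.60 (SE 0.135), with an adjusted p of 0.0973 in edgeR and 0.00627 in DESeq2.

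MRPL3 (ENSG00000114686), the counterpart of the bacterial protein that reaches towards the peptidyl transferase centre, lies at chr3:131462212-131502983 on the minus strand. It measured 112.9, 136.9 and 103.2 CPM in shNC and 152.0, 170.8 and 180.9 CPM in shECM1. The groups did not overlap, and the log2 fold change was 0.51 (SE 0.125, adjusted p 0.0973 in edgeR). MRPL15 (chr8:54135210-54147901, plus strand), whose bacterial counterpart binds ribosomal RNA of the large subunit, measured 37.3, 50.3 and 29.6 CPM in shNC and 50.7, 57.8 and 64.5 CPM in shECM1. Here shNC 2 nearly reached shECM1 1, and the log2 fold change was 0.56 (SE 0.178), which ranged from 0.40 without shNC 3 to 0.80 without shNC 2.

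MRPL20 (chr1:1401908-1407313, minus strand), the counterpart of a bacterial protein that binds ribosomal RNA early in assembly, measured 57.6, 69.3 and 49.3 CPM in shNC and 76.1, 82.8 and 84.1 CPM in shECM1. The groups did not overlap (log2 fold change 0.46, SE 0.132). MRPL58 (chr17:75012670-75021261, plus strand), also known as ICT1, is a peptidyl-tRNA hydrolase built into the large subunit that frees stalled chains. It measured 65.1, 70.6 and 66.1 CPM in shNC and 81.0, 85.0 and 100.3 CPM in shECM1. Its controls lay close together and below every shECM1 library (log2 fold change 0.40, SE 0.114). It was named after its values were seen.

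MRPL50, a protein particular to mitochondria, had a log2 fold change of 0.43 (SE 0.132), with 21.3, 24.9 and 22.1 CPM in shNC and 27.0, 31.5 and 33.2 CPM in shECM1, again without overlap. In MRPL24 and MRPL4 the groups overlapped through shNC 2. MRPL24, at the rim of the exit tunnel, measured 23.7, 33.4 and 22.0 CPM against 32.5, 38.3 and 38.6 CPM (log2 fold change 0.47, SE 0.165). MRPL4, whose bacterial counterpart lines the tunnel, measured 48.4, 62.2 and 43.5 CPM against 57.6, 62.4 and 89.7 CPM (log2 fold change 0.45, SE 0.181). In MRPL4 shECM1 3 alone stood well above the control range, and without it the log2 fold change was 0.23.

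MRPL12, the stalk protein that recruits translation factors and also binds the mitochondrial RNA polymerase, had only 27 to 66 counts a library. It measured 2.37, 3.52 and 1.93 CPM in shNC and 3.38, 3.93 and 3.44 CPM in shECM1 (log2 fold change 0.46, SE 0.276; 0.28 without shNC 3 and 0.76 without shNC 2). Of its exon bases 68.2% are shared on the same strand with ENSG00000262660, an annotated gene at 0 counts in every library, and reads over shared exons may have been left uncounted. Its low value is therefore uncertain as a level.

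**Figure D3:**
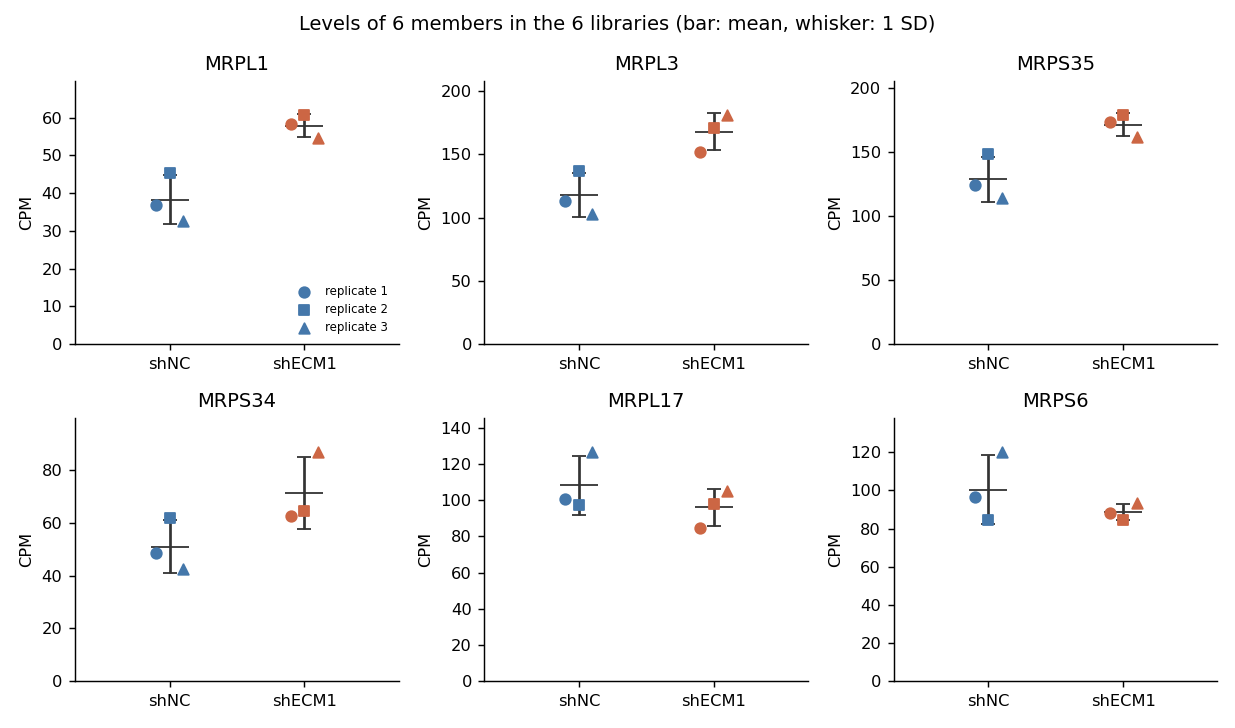
CPM (y axis) of 6 members in the 3 shNC and 3 shECM1 libraries (x axis), with replicates as separate markers, the mean as a bar and 1 SD as whiskers. In MRPL1, MRPL3, MRPS35 and MRPS34 every shECM1 point is above every shNC point, while in MRPL17 and MRPS6 the groups overlap.

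Of the 6 small-subunit genes with the largest fold changes, 5 encode proteins particular to mitochondria. MRPS34, needed for a stable small ribosomal RNA (chr16:1771890-1773155, minus strand), measured 48.5, 62.0 and 42.6 CPM in shNC and 62.7, 64.4 and 86.9 CPM in shECM1. The groups were separated by less than 1 CPM, between shNC 2 and shECM1 1 (log2 fold change 0.48, SE 0.166; 0.32 without shECM1 3). MRPS35 (chr12:27710773-27756295, plus strand) measured 124.0, 148.2 and 114.1 CPM in shNC and 173.8, 178.7 and 161.7 CPM in shECM1. Here the gap between groups was wide (log2 fold change 0.41, SE 0.116; adjusted p 0.108 in edgeR and 0.0356 in DESeq2).

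MRPS33 (chr7:141002610-141015228, minus strand) measured 49.2, 62.6 and 50.3 CPM in shNC and 69.5, 79.1 and 72.1 CPM in shECM1, without overlap (log2 fold change 0.44, SE 0.124). MRPS26 measured 47.1, 50.3 and 40.3 CPM against 55.9, 52.7 and 75.1 CPM (log2 fold change 0.42, SE 0.151; 0.24 without shECM1 3). MRPS23 measured 54.7, 71.7 and 51.4 CPM against 71.7, 80.9 and 82.7 CPM (log2 fold change 0.40, SE 0.138). In both, all shECM1 libraries were at or above the highest control, by a margin of under 3 CPM.

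MRPS18C is 1 of the 3 human homologues of bacterial S18 and the other member of the leading small-subunit group with a bacterial counterpart. It measured 40.4, 54.9 and 46.7 CPM in shNC and 73.4, 74.2 and 50.7 CPM in shECM1 (log2 fold change 0.48, SE 0.165). The groups overlapped because shECM1 3 fell below shNC 2. Of its exon bases 40.2% lie opposite ABRAXAS1, whose own log2 fold change was 0.12.

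In 3 members, MRPS6, MRPL17 and MRPL10, the log2 fold change was negative, and in none of them were the groups apart. MRPS6, the counterpart of bacterial S6 at the platform of the small subunit, measured 96.7, 84.5 and 120.2 CPM in shNC and 88.1, 84.6 and 93.4 CPM in shECM1 (log2 fold change -0.18, SE 0.132, adjusted p 0.427 in edgeR). It shares 6.35% of its exon bases with SLC5A3 on the same strand, a sodium/myo-inositol transporter gene with a log2 fold change of -0.68. MRPL17, the counterpart of a bacterial protein near the tunnel exit, measured 100.6, 97.5 and 126.8 CPM in shNC and 84.8, 98.1 and 105.4 CPM in shECM1 (log2 fold change -0.17, SE 0.130). In both genes shNC 3 was the highest of all 6 libraries. The other controls of MRPL17 lay among its shECM1 libraries, and in MRPS6 shNC 2 was the lowest library of all. Without shNC 3 the log2 fold changes were -0.03 in MRPS6 and -0.04 in MRPL17. Without shNC 2 that of MRPS6 was -0.28, and without shECM1 1 that of MRPL17 was -0.08.

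MRPL10, which anchors the L12 stalk, measured 62.7, 56.9 and 61.1 CPM against 50.3, 54.0 and 65.0 CPM (log2 fold change -0.09, SE 0.123). MRPL41 and MRPL2 lay near 0, with log2 fold changes of 0.01 (SE 0.135) and 0.02 (SE 0.140). MRPL41 measured 22.8, 25.2 and 26.9 CPM against 21.8, 27.1 and 26.3 CPM. MRPS14 and MRPS18A were the lowest MRPS genes after MRPS6, at 0.07 (SE 0.112) and 0.09 (SE 0.120). The standard errors of these genes are as large as or larger than their fold changes.

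Large and small subunits were compared directly, since a ribosome needs both. The large-subunit genes were positive in 46 of 48 with a median log2 fold change of 0.22, and the small-subunit genes in 27 of 28 with a median of 0.22. All shECM1 libraries were above all controls in 23 large-subunit and 14 small-subunit genes, where 11.2% of all tested genes did so. The summed CPM of the large subunit was 2794 ± 157 in shNC and 3294 ± 190 in shECM1 (SD, n = 3), and that of the small subunit 1703 ± 88.8 and 2006 ± 75.8. The ratio of large over small was 1.64, 1.65 and 1.64 in shNC and 1.60, 1.66 and 1.66 in shECM1. Its mean was 1.64 in both groups (SD 0.00665 and 0.0336), so the difference was far smaller than the spread between libraries.

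Symbols do not follow the structure everywhere. MRPS30 and MRPS18A sit in the large subunit, and MRPS36 belongs to a dehydrogenase complex and is no ribosomal protein. With these moved or removed, the ratio was 1.97, 1.96 and 1.997 in shNC and 1.90, 1.97 and 1.98 in shECM1, again overlapping. The medians by structure were 0.21 for the large and 0.23 for the small subunit.

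By place in the ribosome the groups were small. The 5 tested proteins of the L7/L12 stalk had a median log2 fold change of 0.14, with MRPL11 at 0.34 and MRPL10 at -0.09. The 7 of the central protuberance, which contacts the small subunit and the transfer RNAs, were all positive, with a median of 0.21 and 5 without overlap between groups. The 7 listed for the exit tunnel, including MRPL22, MRPL23 and MRPL45, had a median of 0.14 and 1 without overlap. MRPL4, at 0.45, was not in that list, although its bacterial counterpart lines the tunnel. The list is not complete, and its median depends on which genes it holds. The 5 of the decoding centre and messenger RNA channel had a median of 0.30, with MRPS7 at 0.37 and MRPS5 at 0.10. Over all tested genes, 11.2% had every shECM1 library above every control.

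Members were also grouped by origin. With MRPS30, MRPS18A and MRPS36 placed by structure, the 30 tested large-subunit proteins with a bacterial counterpart had a median of 0.27 and the 20 particular to mitochondria 0.18. In the small subunit the 16 with a counterpart had a median of 0.20 and the 9 particular to mitochondria 0.40. Every shECM1 library lay above every control in 13 of the 30 and 11 of the 20 in the large subunit. In the small subunit this held for 5 of the 16 and 8 of the 9. The share over all tested genes was 11.2%. These are counts and medians in groups chosen with earlier results known, and the difference between them was not tested.

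Levels were compared between genes only per length, as CPM per kilobase of the principal transcript, averaged over the 6 libraries. MRPL21 was highest in the large subunit at 159.7 CPM per kilobase, followed by MRPL33 at 119.0 and MRPL51 at 116.9. MRPL35 at 5.48 and MRPL12 at 3.01 were lowest. In the small subunit by symbol MRPS6 led at 95.5, followed by MRPS18A at 85.1 and MRPS15 at 80.6, with MRPS11 at 11.5 and MRPS25 at 7.74 last. By structure MRPS18A belongs to the large subunit. The order depends on the length used: per kilobase of all annotated exons, MRPL51 came first in the large subunit, MRPL21 was at rank 15 and MRPS6 was at rank 13 in the small subunit. Among members of large fold change, MRPL1 was at rank 35 of 48 per kilobase of the principal transcript and rank 24 per kilobase of all exons. MRPS34 was at ranks 8 and 3 of 28, MRPS33 at ranks 4 and 21, and MRPS35 at ranks 5 and 1.

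The base composition of a member went with which shECM1 library was highest. Over the 76 members, whose exons ranged from 35.0% to 71.9% GC, the Pearson correlation of log2 deviation with GC was -0.51 in shECM1 1, -0.46 in shECM1 2 and 0.52 in shECM1 3. In shNC 1 to 3 it was 0.10, 0.17 and 0.06. Over all tested genes the values were -0.55, -0.55 and 0.16 in shECM1 and 0.41, -0.05 and 0.29 in shNC. These are descriptions across genes of the same libraries.

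Among the 19 members of lowest GC, shECM1 2 was highest in 16, and among the 19 of highest GC, shECM1 3 was highest in 15. MRPL1, at 37.9% GC, had its lowest shECM1 value in shECM1 3. MRPS34, at 63.6% GC, had its highest there. The median log2 fold change was 0.30 in the low-GC group, with 11 members without overlap, and 0.15 in the high-GC group, with 3. All of these were higher in shECM1, where 11.2% of all tested genes had every shECM1 library above every control. Genes of matched GC outside the family were not compared. Fold change itself correlated with GC at -0.14 in members and -0.39 over all genes. With GC as an offset in the fit, the members' median was 0.23 and 71 were positive. The large-subunit median was then 0.25 and the small-subunit median 0.19.

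**Figure D4:**
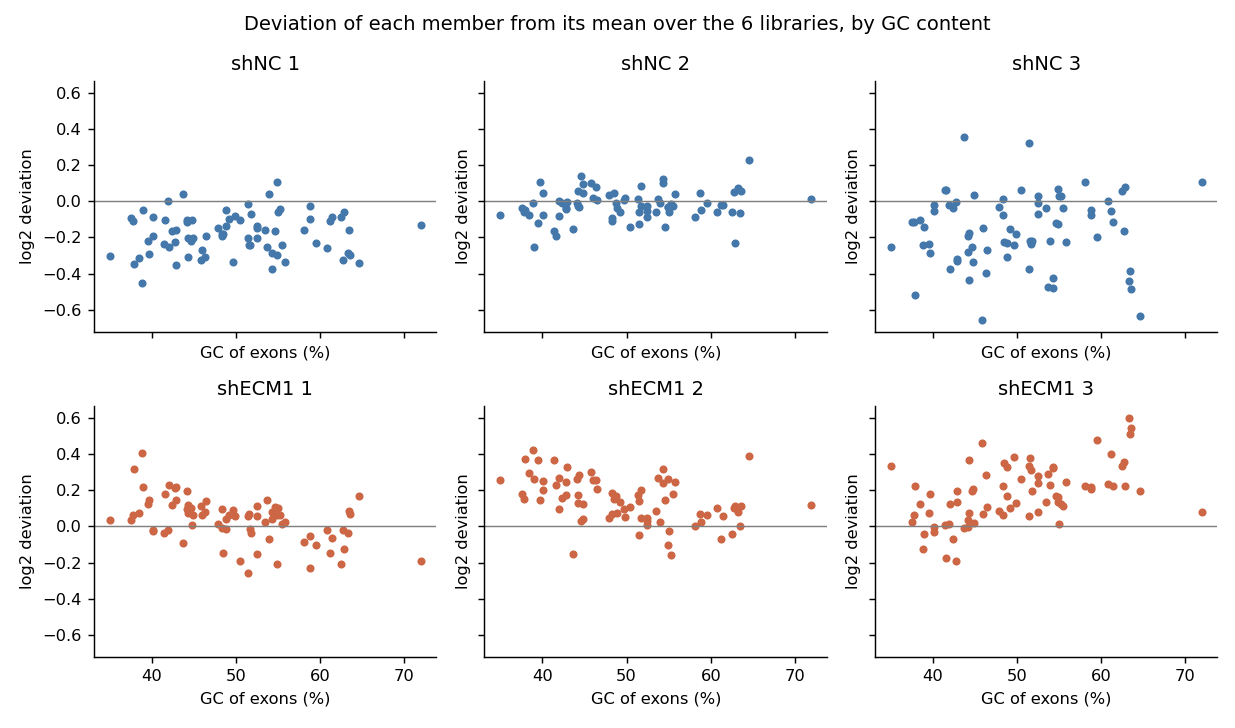
Log2 deviation of each of the 76 tested members from its own mean over the 6 libraries (y axis) against the GC content of its exons in percent (x axis), 1 panel a library. In shECM1 1 and shECM1 2 the points slope down (Pearson -0.51 and -0.46), in shECM1 3 they slope up (0.52), and in the shNC panels most points lie at or below 0. The points use log2 CPM, and the Pearson values use log2(CPM + 0.5).

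Genes related to the mitochondrial ribosome were taken from lists set up together with the family. No gene in them was called by edgeR at an adjusted p under 0.05, where 0% of all tested genes were called. Over all tested genes 51.4% were positive, and in 11.2% every shECM1 library lay above every control. The 5 ribosomal proteins with other symbols were all positive, with a median of 0.18, from CHCHD1 at 0.16 to DAP3, the GTP-binding protein of the small subunit, at 0.27. DAP3 measured 132.4, 151.5 and 129.0 CPM in shNC and 162.4, 172.1 and 163.2 CPM in shECM1, without overlap. Of 29 assembly factors 26 were positive, with a median of 0.21 and 6 without overlap. GTPBP6, a GTPase of large-subunit assembly, had the largest value there, 0.62 (SE 0.733). It rests on shECM1 1 alone, with 1.44, 6.68 and 5.80 CPM in shNC and 18.0, 1.85 and 2.85 CPM in shECM1, and became -0.996 without that library. NGRN, which supports the large ribosomal RNA, was lowest at -0.13.

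All 20 translation factors were positive, with a median of 0.19, 5 without overlap and 2 called higher by DESeq2. Among all genes the shares were 51.4% positive, 11.2% with every shECM1 library above every control and 1.04% called higher by DESeq2. SLIRP, which with LRPPRC stabilises mitochondrial messenger RNAs, measured 43.4, 63.0 and 46.1 CPM in shNC and 69.1, 77.9 and 70.1 CPM in shECM1 (log2 fold change 0.51, SE 0.146). MTRF1, a release factor, was nearest to 0 at 0.02 (SE 0.191). The list of mitochondrial transcription and RNA processing also held genes of mitochondrial DNA copying, namely POLG, POLG2, TWNK and SSBP1. Of its 25 tested genes 23 were positive, with a median of 0.32, and 10 had every shECM1 library above every control. TFB2M, a transcription initiation factor, stood at 0.56 (SE 0.178). POLG, the polymerase that copies mitochondrial DNA, stood at -0.30 (SE 0.111), with every shECM1 library below every control.

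The 13 mitochondrial protein-coding genes, whose messenger RNAs this ribosome translates, were of mixed direction, with 5 positive, 8 negative and a median log2 fold change of -0.11. MT-ND3, a subunit of complex I, measured 422.0, 496.2 and 350.2 CPM in shNC and 593.2, 550.6 and 531.0 CPM in shECM1 (log2 fold change 0.40, SE 0.127). MT-ND4, a larger subunit of the same complex, measured 5049, 4475 and 4865 CPM against 4210, 3872 and 4176 CPM (log2 fold change -0.23, SE 0.096). MT-ND4L and MT-ND4 overlap, as do MT-ATP8 and MT-ATP6, and each pair shares a messenger RNA. In MT-ND3 and in MT-ND4 the groups were apart, in opposite directions.

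**Figure D5:**
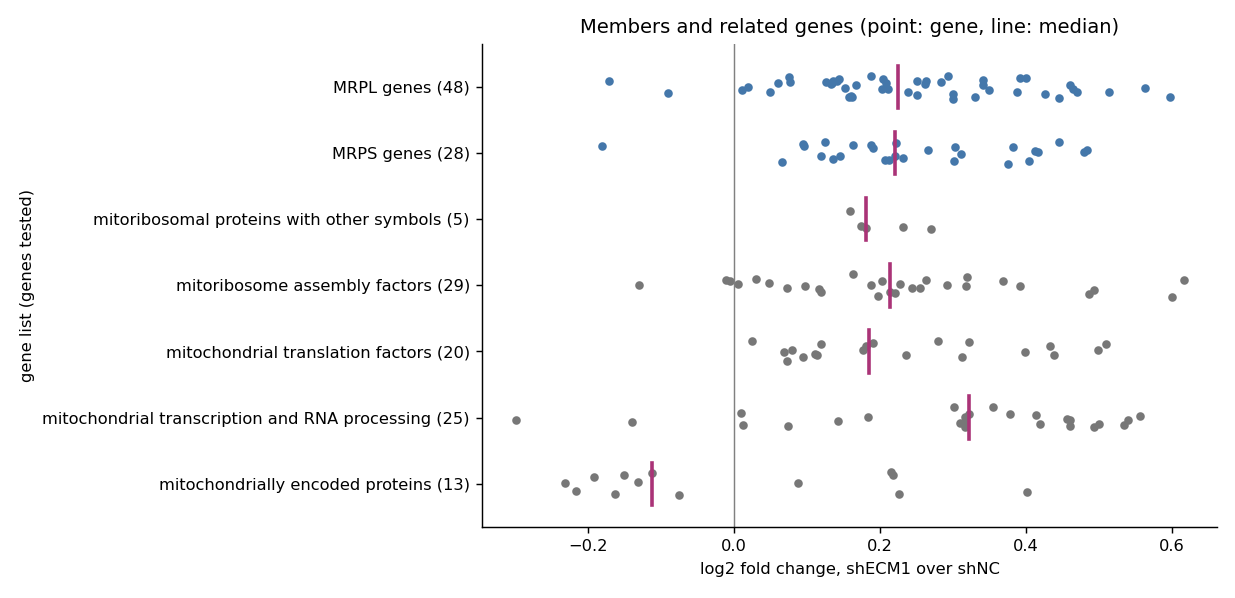
Log2 fold change of shECM1 over shNC (x axis) for the tested genes of each list (y axis), 1 point a gene with the list's median as a line; points are shifted up or down at random so that they can be seen. The lists encoded in the nucleus have medians from 0.18 to 0.32, and the 13 mitochondrially encoded genes have a median of -0.11.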

How the data were processed

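The authors deposited a table of raw counts of reads per gene for 6 libraries. The submitters' processing notes name GRCh38 and the tools featureCounts, STAR, fastp, Seurat and DESeq2; versions, settings, strandedness and the treatment of shared exons were not stated. The members and lists were chosen with earlier results of these data known.

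Of 20476 rows, 20462 had a symbol and 20244 an entry in GENCODE release 29, which gave positions, lengths and GC. No row was a summary line and 0 columns belonged to other samples. Where a symbol had 2 rows, the row with more counts was used. Counts were tested with edgeR 4.0.16 (R 4.3.3; TMM, filterByExpr, quasi-likelihood, Benjamini-Hochberg over 12576 genes, threshold 0.05); DESeq2 1.42.0 and limma 3.58.1 were alternatives, among others in scaling, filter, GC, replicate block and libraries left out. Scripts were tested on simulated data. Deviations used log2(CPM + 0.5). Totals of 9881720 to 16813951 counts limit precision mainly for members of few counts, such as MRPL12. No pair of libraries was closer than sampling noise (smallest chi-square 3.32 per gene). Replicate numbers did not pair the samples.

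Genes named were ECM1, MRPL1, the 8 most positive and 4 most negative MRPL genes, the 6 most positive and 3 most negative MRPS genes, the 3 highest and 2 lowest levels per length of each subunit, members at 0, and the extremes of each related list; any other was named after its values were seen.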

Additional observations from a re-analysis of the deposited data

How the results depend on the processing

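The count of genes called, 0 in the edgeR test, was 717 in DESeq2, 505 with no count filter, 2681 in DESeq2 without shNC 2 and 3283 with the GC offset without shNC 2, the last 2 settings having been chosen after seeing the data; leaving out each replicate in turn gave 0 to 3037, the highest without shNC 2. Members called were 7, 2, 27 and 35 in the same order, and 0 to 28 over the replicates left out. Of all genes called in DESeq2, 121 were higher and 596 lower, among 11620 given an adjusted p. With no count filter 42 were higher and 463 lower of 16386 tested. Without shNC 2, 1079 were higher and 1602 lower of 16238 in DESeq2, and 1238 and 1799 of 12730 in edgeR. With the GC offset without shNC 2, 1494 were higher and 1789 lower of 12730. The 35 members include MRPS6, called lower (log2 fold change -0.40). Members whose groups do not overlap, 37 at first, were 40 to 57 with a replicate left out, where fewer samples are compared, and 56 with the GC offset without shNC 2; over all genes the share without overlap also rose, from 24.4% to 54.0% without shNC 2 and 56.9% with the GC offset without shNC 2. The large minus small subunit median was -0.0467 in DESeq2 without shNC 2, 0.0621 with the GC offset, 0.0561 with the replicate block and GC offset, and -0.046 to 0.0311 over the replicates left out; the cause was not tested.

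Among 39 genes named by the rule, 33 kept their direction in each of 18 settings in which they were tested; MRPL12 was not tested under the stricter count filter. MRPL2 was between -0.0398 and 0.10, MRPL41 between -0.0466 and 0.11 (-0.0461 without shECM1 2 and -0.02 without shECM1 3) and MRPS11 between -0.0006 and 0.22 with a replicate left out. MRPS14 was -0.0448 with the GC offset, -0.0453 with the block and GC offset and -0.10 with the GC offset without shNC 2. MTRF1 was -0.11 with the GC offset, -0.10 with the block and GC offset, and -0.0834 to 0.23 with a replicate left out (-0.05, -0.01, -0.0359 and -0.0834 without shECM1 1, shECM1 2, shNC 1 and shNC 3). GTPBP6 was -0.0014 in limma-voom and -0.996 to 1.125 with a replicate left out.

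Same-numbered libraries of the groups had correlations of deviations of -0.07, -0.05 and -0.18, and samples share only a number. With the replicate block 0 genes and 0 members were called, 73 members were positive and their median was 0.22. No library correlated best with its own number. Limits: the letter-to-group reading, the unstated library type and strand setting, 3 libraries a group, and the position of the control shNC 2. Without shNC 2 edgeR called 28 members instead of 0. With all 6 libraries the count of members called also moved with the method and the count filter.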

Other observations

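Several mitochondrial ribosomal protein genes start back to back with another gene. MRPL46 and MRPS11, 1 gene of each subunit, start 34 bases apart on chromosome 15, and their log2 fold changes were 0.26 (SE 0.125) and 0.12 (SE 0.132). Another 10 members start within 200 bases of a tested gene outside the family. Of these neighbours 6 were positive and 4 negative, where 51.4% of all tested genes were positive. The neighbours' median log2 fold change was 0.07, and the median over all tested genes was 0.01. That of the members facing them, whose family was picked on this contrast, was 0.30. MRPL36 and NDUFS6, a complex I gene 34 bases away, stood at 0.39 and 0.33. MRPL18 and TCP1, a subunit of the cytosolic chaperonin 63 bases away, stood at 0.16 and 0.27. In contrast, MRPL21 stood at 0.34 and IGHMBP2, a helicase gene 7 bases away, at -0.27, and MRPL27 stood at 0.13 and EME1, a nuclease subunit gene 6 bases away, at -0.24. None of these neighbours was called by edgeR, which called 0% of all tested genes. These pairs were chosen after their values were seen.

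Exons are shared with another annotated gene on the same strand in 13 members and on the opposite strand in 21. MRPL30, at 0 counts, shares 19.5% of its exon bases with ENSG00000241962, which had 9 to 36 counts a library. MRPS17, also at 0, shares 27.0% with other genes, among them NIPSNAP2 at 1725 to 2899 counts. Reads on bases shared on the same strand cannot be told apart by strand, and how they were counted was not stated. In MRPL30 and MRPS17 most exon bases are not shared, and the cause of their 0 counts was not tested. Among the 65 tested members that share no exon base on the same strand, 63 were positive, with a median of 0.24.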
